A study of Rattus norvegicus with 10 samples.

Results

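The small heat shock proteins of heart muscle and their partner BAG3 were followed at the RNA level in cultured cardiomyocytes of newborn rats, with either of 2 forms of YAP overexpressed. The set held 8 genes, chosen by name (Cryab, Hspb1, Hspb2, Hspb3, Hspb6, Hspb7, Hspb8 and Bag3), of the 39784 gene names in the deposited RNA-seq tables, and each had a single entry there. YAP is a transcriptional coactivator that reaches DNA through TEAD factors. The YAP5SA group (Ad-Xon-YAP5SA) carried the activated form, whose serines phosphorylated by the Hippo kinases are alanines, and the YAP5SA-S94A group (Ad-Xon-YAP5SA-S94A) carried that form with the S94A replacement added, which prevents TEAD binding. Both groups were wild-type heart cells in culture, with 2 libraries each, which the labels name biological replicates. They do not say whether these came from separate isolations, so p-values measure only the spread between these libraries. No library without activated YAP was used, so a difference does not show which form departed from the untreated state. The 6 CUT&RUN samples were not used here.

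Small heat shock proteins are ATP-independent chaperones that hold unfolding proteins in a soluble state until chaperones of the HSP70 class refold them or pass them on for degradation. In cardiac muscle they sit on desmin filaments, actin, filamin and titin, and a mutation in CRYAB can cause a myopathy with desmin aggregates. BAG3 joins HSPB8 to HSP70 and hands damaged filamin and other Z-disc proteins to autophagosomes, a route called chaperone-assisted selective autophagy. The WW domain of BAG3 also binds the Hippo pathway regulators LATS1 and AMOTL1, and the heat shock factor HSF1 activates several of these genes under stress.

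The 8 genes split. Cryab, Hspb3 and Hspb2 were higher with YAP5SA, Hspb8 and Bag3 were lower, and Hspb1, Hspb6 and Hspb7 did not pass the test. A gene is described as called, risen or fallen where the limma adjusted p over all tested genes lay under 0.05. By that test 5 of the 8 members were called, 3 higher and 2 lower, while 32.9% of the 13420 tested genes were called in either direction, 17.4% higher and 15.5% lower. The members were chosen with earlier results of these data known, so their share is a description and not an independent test. All 8 members passed the filter on low values, a mean of at least 1 TPM (a transcript level scaled to gene length and to the same sum in every library). Their median difference was 0.11 on the log2(TPM + 1) scale, against 0.00015 over all tested genes, with the rises and falls offsetting each other. The members carried a mean coverage of 101 to 6035 reads per base in single libraries.

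Sequence just before the transcription start was at hand for 6 of the 8 genes, from the RefSeq promoter table of build GRCr8, a later build than the rn7 of the expression tables. It was searched on both strands for the letters GAANNTTC and TTCNNGAA, the 2 orientations of a minimal heat shock element, and for GGAATG, the core that TEAD factors recognise (CATTCC on the other strand). Each window ran from 250 bases before to 50 after the start. No window was at hand for Cryab and Hspb2, so of the members that rose only Hspb3 was searched. At least 1 of the 2 heat shock orientations was present in 4 of the 6 promoters, and in 15.9% of the 33469 promoters of the table. These 4, of Bag3, Hspb8, Hspb1 and Hspb6, all held the identical 8 letters GAAGTTTC. The exact letters were picked because these promoters shared them, so their share of 1.39% over the table is only a description. The 30 bases around that match are shown because they let the fallen genes be compared with those that did not pass the test, with the heat shock letters in capitals.
Bag3: ggatgggaccaGAAGTTTCtagccggccag
Hspb8: agaagccaggaGAAGTTTCtaggcgcgtga
Hspb1: cttcaactagaGAAGTTTCcagatgggggc
Hspb6: aagtaattattGAAGTTTCtaaataaggaa
These lie at chr1:192533317-192533346 on the plus strand (Bag3), chr12:45837274-45837303 on the plus strand (Hspb8), chr12:26432412-26432441 on the minus strand (Hspb1) and chr1:94934212-94934241 on the plus strand (Hspb6).

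Of the 6 pairs among these promoters, Bag3 and Hspb8, the 2 members that fell, shared the longest run. Both held the same 12 letters, AGAAGTTTCTAG, a run present in 7 promoters of the table. The run was taken from these 2 promoters, which count among the 7. The first G of the heat shock letters stood at base -132 from the start in Bag3 and at base -23 in Hspb8. The other promoters with the run were picked by sequence and not by values. Of their genes, Gldn rose by 1.22 on the log2 scale (limma adjusted p = 0.0073), Naa16 and Tarbp1 were not called, and LOC120095689 and LOC134484259 gave no test. A match of letters is a description and not a binding site.

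The longer promoter stretches of Bag3 and Hspb1 are printed because both hold heat shock letters while Bag3 fell and Hspb1 did not pass the test. Each is the 250 bases before the start, 5′ to 3′, with matches to the 3 motifs in capitals.
Bag3: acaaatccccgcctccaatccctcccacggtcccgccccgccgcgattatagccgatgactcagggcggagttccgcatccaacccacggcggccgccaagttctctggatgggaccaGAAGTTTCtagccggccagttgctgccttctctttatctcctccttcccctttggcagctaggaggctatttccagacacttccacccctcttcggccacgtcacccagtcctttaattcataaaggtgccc
Hspb1: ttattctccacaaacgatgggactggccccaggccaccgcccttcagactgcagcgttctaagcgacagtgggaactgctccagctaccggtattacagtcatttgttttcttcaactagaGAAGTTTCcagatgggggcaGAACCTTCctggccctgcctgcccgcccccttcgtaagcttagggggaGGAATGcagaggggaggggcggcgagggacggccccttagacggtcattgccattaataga
The Bag3 stretch is chr1:192533210-192533459 (plus strand) and the Hspb1 stretch chr12:26432302-26432551 (minus strand), both GRCr8. Hspb1 held GAANNTTC 2 times and was the only one of the 6 promoters with GGAATG, from base -61 to base -56. Hspb6 also held TTCTAGAA, the other orientation, from base -239. None of the 3 motifs was found in the windows of Hspb3, which rose, or Hspb7. Over all promoters of the table GAANNTTC was present in 8.59%, TTCNNGAA in 8.77% and GGAATG in 14.2%.

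Cryab, which encodes alphaB-crystallin, the chaperone of desmin and titin, was the most abundant member and the one that changed most. Its level was 3611 and 3462 TPM in YAP5SA, against 1095 and 1085 TPM in the YAP5SA-S94A libraries. Both YAP5SA values lay far above both others, and the libraries of a group lay close together. The means were 3537 ± 106 TPM with YAP5SA and 1090.03 ± 7.14 TPM with YAP5SA-S94A (SD, n = 2 each), a ratio of 3.24 and a log2 difference of 1.70 (SE 0.085, limma adjusted p = 3.03e-05). By mean TPM over all gene names Cryab ranked 24 with YAP5SA and 139 with YAP5SA-S94A. Of the tested genes, 391 had a larger log2 rise.

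**Figure D1:**
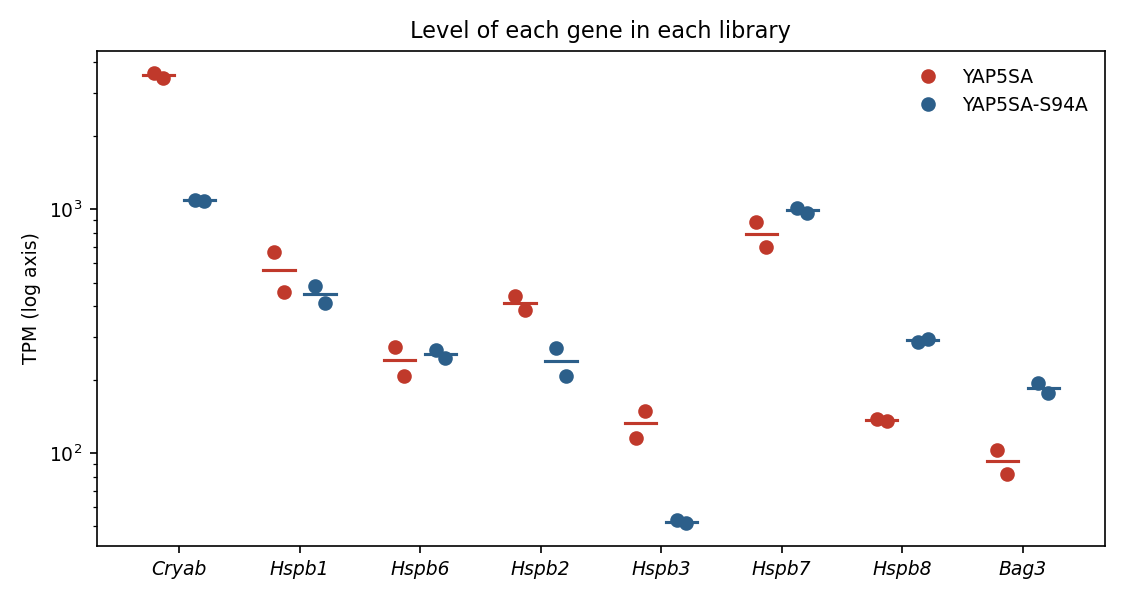
Level of each of the 8 genes in TPM on a log axis, with a point for each library and a line at the group mean, YAP5SA (red) left of YAP5SA-S94A (blue). Cryab, Hspb2 and Hspb3 lie higher in both YAP5SA libraries, Hspb7, Hspb8 and Bag3 lie lower in both, and Hspb1 and Hspb6 overlap.

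Hspb2 and Hspb3 encode muscle-restricted small heat shock proteins that assemble with each other in a mixed complex. Hspb3 stood at 116 and 149 TPM in YAP5SA, against 52.8 and 51.5 TPM in YAP5SA-S94A. It was the least abundant member in YAP5SA-S94A, and its lowest YAP5SA value was still above both of the others. Its log2 difference was 1.31 (SE 0.14, limma adjusted p = 5.11e-04), from means of 132 ± 23.5 TPM with YAP5SA and 52.2 ± 0.95 TPM with YAP5SA-S94A (SD, n = 2 each).

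Hspb2 stood at 439.6 and 387 TPM in YAP5SA, against 269 and 207 TPM in YAP5SA-S94A. The groups did not overlap, although the spread within each was wider than for Cryab. Its log2 difference was 0.80 (SE 0.14, limma adjusted p = 0.00489). Hspb2 and Cryab cannot be read as independent. In the rn7 tables Hspb2 (chromosome 8, 51093267 to 51094528, minus strand) and Cryab (chromosome 8, 51093441 to 51099161, plus strand) share 1088 bases on opposite strands, which is 86.2% of the span of Hspb2 and 19.0% of that of Cryab. The libraries were directional per the labels, but whether the counting used the strand is not given in the sources used here, so the part that Cryab reads play in the Hspb2 value was not tested. Cryab was 8.22 and 8.95 times as abundant as Hspb2 in the YAP5SA libraries and 4.07 and 5.25 times in the YAP5SA-S94A libraries, so the 2 genes did not change by the same factor. The nearest expressed genes outside the pair, C8h11orf52 on one side and Fdxacb1 on the other, were not called (log2 differences 0.037 and 0.53), though Fdxacb1 was called higher without YAP5SA replicate 1 (adjusted p = 0.0355).

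Hspb8 and Bag3, whose proteins act as 1 complex, fell together. Hspb8 stood at 138 and 135 TPM in YAP5SA, against 286 and 293 TPM in YAP5SA-S94A. The libraries of each group nearly coincided and the groups were far apart. It fell by 1.08 on the log2 scale (SE 0.088, limma adjusted p = 1.74e-04), with means of 137 ± 1.94 TPM in YAP5SA and 289.8 ± 5.05 TPM in YAP5SA-S94A (SD, n = 2 each). Bag3 stood at 103 and 82.2 TPM in YAP5SA, against 193 and 177 TPM in YAP5SA-S94A, again without overlap. It fell by 1.00 on the log2 scale (SE 0.13, limma adjusted p = 0.00135), which made it the least abundant member with YAP5SA. The ratio of Hspb8 to Bag3 stayed in a narrow band, at 1.34 and 1.65 in YAP5SA and 1.48 and 1.66 in YAP5SA-S94A. The ratio of Cryab to Bag3, in contrast, was 35.0 and 42.1 in YAP5SA and 5.67 and 6.13 in YAP5SA-S94A.

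Hspb1, Hspb6 and Hspb7 did not pass the test. Hspb1 encodes the ubiquitous HSP27, a p38-pathway substrate that guards actin filaments. It stood at 669 and 459 TPM in YAP5SA, against 484 and 413 TPM in YAP5SA-S94A, so the groups overlapped and the YAP5SA libraries differed from each other more than the group means did. Its log2 difference was 0.31 (SE 0.18, limma adjusted p = 0.225). It was 0.58 and called higher without YAP5SA replicate 2 (adjusted p = 0.0217), and 0.037 without YAP5SA replicate 1. In this and every other fit with a library left out, the lone library of that group is assumed to vary like the other group. Without a YAP5SA library, the YAP5SA-S94A pair gives the gene's own spread. Without a YAP5SA-S94A library, the standard errors of the 8 members were nearly alike, at 0.19 to 0.21. The spread used there was thus mostly a value shared among genes. A call lost in those fits does not show that the gene's own libraries varied. For Hspb1 the standard error without a YAP5SA library was thus 0.11, against 0.18 with all 4.

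Hspb6 encodes HSP20, a substrate of protein kinase A in heart. It stood at 272 and 207 TPM in YAP5SA, against 265 and 244 TPM in YAP5SA-S94A, with both YAP5SA-S94A values between those of YAP5SA. Its log2 difference was -0.098 (SE 0.14, limma adjusted p = 0.627). Without YAP5SA replicate 1 the difference was -0.29 and called (adjusted p = 0.0437), and without YAP5SA replicate 2 it was 0.097. The standard errors of 0.077 and 0.076 in these fits again rested on the YAP5SA-S94A pair.

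Hspb7 encodes the cardiovascular small heat shock protein that binds filamin C and actin monomers. It stood at 883 and 701 TPM in YAP5SA, against 1014 and 963 TPM in YAP5SA-S94A, both YAP5SA values below both others. The log2 difference of -0.33 (SE 0.12) had a limma adjusted p of 0.0791. It was called lower without YAP5SA replicate 1 (log2 difference -0.49, adjusted p = 0.00798), under quantile normalization (adjusted p = 0.042) and after removal of the mitochondrial genes (adjusted p = 0.0211). In 6 of the 8 members, Hspb7 among them, no library of one group reached into the range of the other, 3 above and 3 below, and in 68.2% of all tested genes, 34.5% above and 33.8% below. The smallest two-sided p of an exact permutation test in this design is 0.333, and the calls depend on limma sharing its variance estimate among genes. Hspb6 shares 8 bases with Lin37 on the opposite strand, which was not called.

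**Figure D2:**
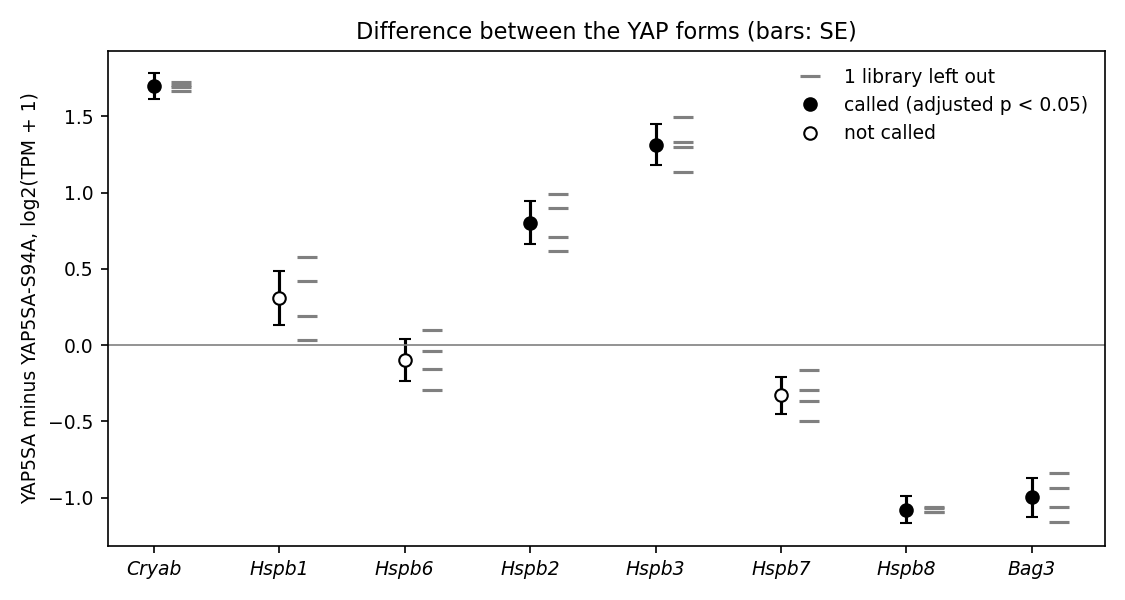
Difference between YAP5SA and YAP5SA-S94A on the log2(TPM + 1) scale for each gene, with bars for the standard error, filled points for called genes and grey ticks for the value with each library left out. Cryab (1.70) and Hspb8 (fell by 1.08) hardly move when a library is left out, whereas Hspb6 changes sign.

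Of the 8 nearest expressed genes outside the called members, C8h11orf52 and Fdxacb1 included, 2 were called, which is 25.0% against 32.9% of all tested genes. Snx18, 36939 bases from Hspb3, rose by 0.97 on the log2 scale, and Prkab1, 383137 bases from Hspb8, fell by 1.26. On the other sides Arl15 by Hspb3 and Suds3 by Hspb8 were not called, nor were Tial1 and Inpp5f beside Bag3. Beside the members that did not pass the test, Epha2 near Hspb7 rose by 1.05, and Proser3 and Psenen near Hspb6 fell by 0.63 and 0.42. The calls of Proser3 and Psenen were lost without YAP5SA-S94A replicate 1 (adjusted p = 0.134 and 0.152) and without replicate 2 (0.0977 and 0.0902), and with no filter (0.0508 and 0.0721). Ywhag and Mdh2 beside Hspb1 and Zbtb17 beside Hspb7 were not called, but Ywhag was called higher without YAP5SA replicate 2 (adjusted p = 0.0192), and Mdh2 and Zbtb17 lower without YAP5SA replicate 1 (0.0455 and 0.031).

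The order of the members by level differed between the YAP forms. With YAP5SA it ran Cryab, Hspb7, Hspb1, Hspb2, Hspb6, Hspb8, Hspb3 and Bag3, and the library ranges of neighbours overlapped only between Hspb8 and Hspb3. With YAP5SA-S94A it ran Cryab, Hspb7, Hspb1, Hspb8, Hspb6, Hspb2, Bag3 and Hspb3, with an overlap only between Hspb6 and Hspb2. Cryab exceeded Hspb7 by 4.09 and 4.94 times in the YAP5SA libraries, but by 1.08 and 1.13 times in the YAP5SA-S94A libraries.

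The members together took 0.623% and 0.558% of all TPM in YAP5SA, against 0.366% and 0.343% in YAP5SA-S94A. Cryab alone made up 58.0% and 62.0% of that sum in YAP5SA, against 29.9% and 31.6% in YAP5SA-S94A. The 7 others summed to 2620.5 and 2121 TPM in YAP5SA and 2565 and 2349 TPM in YAP5SA-S94A, ranges that overlapped. Hspb8 held 2.22% and 2.42% of the family sum in YAP5SA, against 7.82% and 8.54% in YAP5SA-S94A. Without Cryab the sums of the 2 groups thus no longer stood apart.

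**Figure D3:**
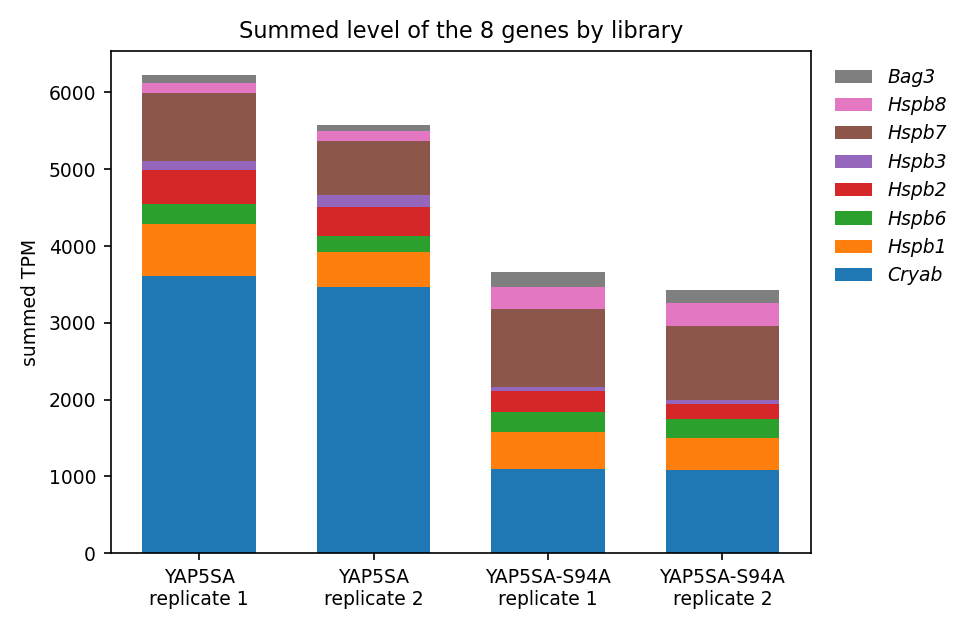
Summed TPM of the 8 genes in each library, YAP5SA libraries left of YAP5SA-S94A libraries, with 1 colour per gene. The bars reach 6232 and 5583 TPM in YAP5SA and 3660 and 3434 TPM in YAP5SA-S94A, and Cryab is the bottom segment.

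The genes whose 4 centred log2 values lay nearest to those of Cryab were the serine protease gene Prss23 (Euclidean distance 0.049), the proprotein convertase gene Pcsk6 (0.054) and Ddah1, which encodes an enzyme that degrades methylarginines (0.058). They rose by 1.73, 1.65 and 1.72 on the log2 scale. Nearest to Hspb8 were the homeobox gene Msx2 (0.024), the coenzyme Q-binding protein gene Coq10a (0.028) and the glutathione transferase gene Gsta1 (0.039), which fell by 1.06, 1.11 and 1.10. With 4 libraries such a likeness says little more than that the group means and the spread were alike.

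The other members of the same families gave no call. Of 8 listed genes found in the tables (the lens crystallin Cryaa, Hspb9, Odf1, Bag1, Bag2, Bag4, Bag5 and Bag6), 5 BAG genes were tested, and by limma 0 rose and 0 fell, with 0 at an unadjusted p under 0.05. Without YAP5SA replicate 1, Bag6 was called lower (adjusted p = 0.00853). The most abundant were Bag6, at 129 ± 26.4 TPM with YAP5SA and 157 ± 4.66 TPM with YAP5SA-S94A, and Bag1, at 133 ± 4.56 TPM with YAP5SA and 129 ± 8.0 TPM with YAP5SA-S94A (SD, n = 2 each). Cryaa was listed at 0 in all 4 libraries. Whether Bag3 differed from the other BAG genes was not tested.

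Of 33 tested heat shock factors, chaperones and co-chaperones, mitochondrial ones included, 11 rose (33.3%, against 17.4% of all tested genes) and 3 fell (9.09%, against 15.5%). Their median log2 difference was 0.32. With no filter the number that rose was 8, and over all genes it was 1821, against 2337 in the main fit. With a library left out the number for this list moved both ways. Dnajb5, an HSP40 co-chaperone, had 63.1 and 52.9 TPM in YAP5SA, against 19.9 and 22.1 TPM in YAP5SA-S94A (log2 difference 1.42, limma adjusted p = 3.55e-04). The inducible HSP90 gene Hsp90aa1 rose by 1.09 to 549.9 ± 91.1 TPM in YAP5SA, against 256 ± 15.9 TPM in YAP5SA-S94A, and Hspe1, the mitochondrial co-chaperonin, by 1.04. Hspe1 shares 100 bases with Hspd1 on the opposite strand, itself called higher. Those that fell were Unc45b, the muscle chaperone that folds myosin heads, by 0.98, and the HSP40 genes Dnaja4 by 0.66 and Dnajb6 by 0.53. The next genes, named after their values were seen, bear on BAG3 and on HSF1. Hspa8, the constitutive HSP70 that BAG3 binds, rose by 0.36 (limma adjusted p = 0.0171). Hsf1, at 28.2 ± 5.36 TPM in YAP5SA and 22.2 ± 0.095 TPM in YAP5SA-S94A, was not called, nor was Stub1, the ubiquitin ligase that joins the BAG3 complex (log2 difference 0.13). The calls of Dnajb6 and Hspa8 were lost without either YAP5SA-S94A library (adjusted p = 0.0632 and 0.0694 for Dnajb6, 0.206 and 0.201 for Hspa8, without replicates 1 and 2) and in the fit with no filter, that of Hspa8 also with no intensity trend. Hsf1 was called higher without YAP5SA replicate 2 (adjusted p = 0.0243), and the sign for Stub1 changed without YAP5SA replicate 1 (log2 difference -0.075).

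Of 16 tested genes of the autophagy route that BAG3 feeds, 6 fell (37.5%, against 15.5% of all tested genes), 1 rose (6.25%, against 17.4%) and 9 were not called. The median log2 difference was -0.099. Sqstm1, the cargo receptor p62, had 367 and 323 TPM in YAP5SA, against 918 and 909 TPM in YAP5SA-S94A (log2 difference -1.40, limma adjusted p = 8.10e-05). Map1lc3b, an LC3 gene of the autophagosome membrane, fell by 0.73 and the lysosomal membrane gene Lamp2 by 0.66. The exception was Hdac6, a deacetylase that moves ubiquitinated aggregates, which rose by 1.60. Synpo2, the Z-disc adaptor that binds the WW domain of BAG3, was named after its values were seen and stood at 90.8 ± 10.0 TPM in YAP5SA and 94.6 ± 2.29 TPM in YAP5SA-S94A, which was not called and changed sign without YAP5SA replicate 2 (log2 difference 0.049).

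The filaments that these chaperones attend to moved both ways, 3 rising and 3 falling of 12 tested (25.0% each, against 17.4% and 15.5% of all tested genes), with a median of 0.17. Of those that rose, the filamin gene Flna did so by 0.83 and vimentin (Vim) by 0.32. The Z-disc gene Nebl fell by 1.20, titin (Ttn) fell by 0.78 and desmin (Des), a client of alphaB-crystallin, fell by 0.52. Desmin stood at 877 ± 139 TPM in YAP5SA and 1250.1 ± 12.5 TPM in YAP5SA-S94A (SD, n = 2 each), so Cryab and its client differed in direction. Muscle filamin (Flnc), named after its values were seen, was not called (log2 difference 0.28). Without YAP5SA replicate 2 the number that rose was 5, Flnc among them (adjusted p = 0.0126). Vim did not pass when either YAP5SA-S94A library was dropped (adjusted p = 0.214 without replicate 1, 0.381 without replicate 2) or with FPKM (0.0684), nor did Ttn without YAP5SA-S94A replicate 2 (0.0872). Vim and Des did not pass with no filter (0.136 and 0.078) or with no intensity trend (0.111 and 0.062).

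Of 7 tested kinases that phosphorylate small heat shock proteins or act just upstream, 1 rose and 2 fell (42.9% called, against 32.9% of all tested genes), with a median of -0.12. Prkd1, protein kinase D, rose by 1.59, Mapkapk3, an HSP27 kinase, fell by 0.86 and Prkaca, the catalytic subunit of protein kinase A, by 0.48. Among 21 endoplasmic reticulum stress genes 5 rose and 6 fell (23.8% and 28.6%, against 17.4% and 15.5% of all tested genes), with a median of -0.031. The co-chaperone gene Dnajb11 rose by 0.92, the transcription factor gene Atf3 by 0.71 and the disulfide isomerase gene Pdia6 by 0.43. The stress factor gene Ddit3 fell by 1.41, and Dnajb9 and Herpud1, of protein disposal from the reticulum, by 1.16 each. Ddit3 overlaps Mars1 and Mbd6 on the opposite strand, neither of them called (log2 differences 0.17 and -0.65). Without YAP5SA-S94A replicate 1 the kinases that fell numbered 1 (Mapkapk3, with Prkaca at an adjusted p of 0.108), and the stress genes that rose numbered 2 without YAP5SA-S94A replicate 1 and 1 without replicate 2, where Pdia6 (0.147 and 0.0568) and, without replicate 2, Atf3 (0.0906) lost their calls. With no filter Prkaca and Atf3 did not pass (adjusted p = 0.0578 and 0.0606), nor did Prkaca and Pdia6 with no intensity trend (0.062 and 0.0516). Over the 6 lists 94 genes were tested, and 21 rose and 20 fell (43.6% called, against 32.9% of all tested genes), with a median log2 difference of 0.052. These lists too were chosen with earlier results of these data known, so the shares of each list are descriptions.

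**Figure D4:**
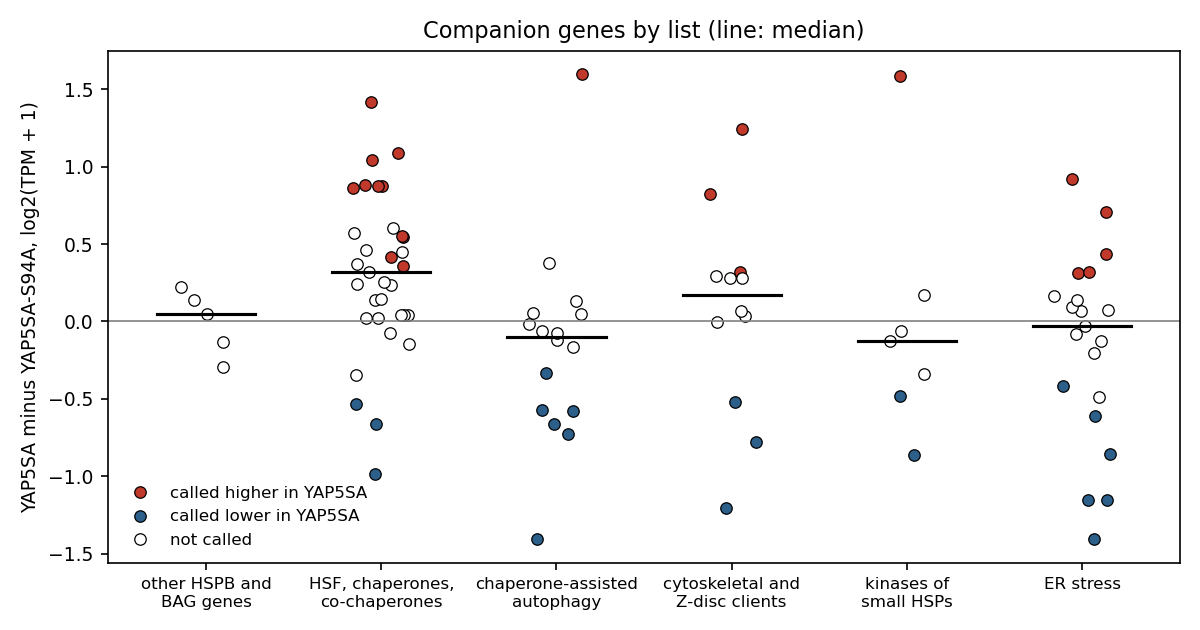
Difference between YAP5SA and YAP5SA-S94A on the log2(TPM + 1) scale for each tested gene of the 6 companion lists, with red and blue points for genes called higher and lower, white points for genes not called and a line at the list median. The chaperone list has the highest median (0.32), and the autophagy list holds 6 genes called lower and 1 called higher.

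The libraries held 4.02 to 5.10 gigabases of aligned sequence, as read from the ratio of coverage to FPKM. All 8 cardiomyocyte markers were present in all libraries, and the list summed to 19649 to 19765 TPM in YAP5SA and 19404 to 19496 TPM in YAP5SA-S94A, with 5 lower, 1 higher and a median log2 difference of -0.51. Nppa, the marker that was higher, had 9550 ± 107 TPM in YAP5SA and 3729 ± 20.7 TPM in YAP5SA-S94A (SD, n = 2 each), and the 7 other cardiomyocyte markers summed to 10139 to 10175 TPM in YAP5SA and 15660 to 15781 TPM in YAP5SA-S94A. Fibroblast markers were also present, with sums of 6748 to 8527 TPM in YAP5SA and 6888 to 7243 TPM in YAP5SA-S94A and 2 of 8 lower. Smooth muscle markers, some of them also expressed by immature cardiomyocytes, summed to 6475 to 6699 TPM in YAP5SA and 1151 to 1201 TPM in YAP5SA-S94A, with 3 of 5 higher. Acta2 held most of the YAP5SA sum, at 4877 ± 70.7 TPM, against 449 ± 25.0 TPM in YAP5SA-S94A (SD, n = 2 each). Myh11 and Smtn were not called. Epicardial markers summed to 47.8 to 52.8 TPM in YAP5SA and 23.0 to 24.1 TPM in YAP5SA-S94A, with 3 of 5 higher. The largest of these rises was that of Upk3b, at 20.3 ± 2.93 TPM in YAP5SA and 0.58 ± 0.048 TPM in YAP5SA-S94A (SD, n = 2 each). Wt1 and Tbx18 lay lower in both YAP5SA libraries but were not called. Endothelial sums were 17.0 to 20.2 TPM in YAP5SA and 28.2 to 29.1 TPM in YAP5SA-S94A (1 of 4 tested higher, 1 lower), and those of macrophages and blood were 99.3 to 108 TPM in YAP5SA and 116.0 to 116.1 TPM in YAP5SA-S94A (1 of 4 higher, 2 lower), with Hbb at 0. The part of these shifts in the differences of the chaperone genes was not tested, and in bulk RNA fewer cells of a type and less RNA per cell cannot be told apart.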

How the data were processed

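RNA from 4 libraries, 2 per YAP form, was analysed. The submitters' processing notes name fastp, HISAT2 2.2.1 and StringTie 2.2.1 and give rn7 as the rat build; settings are not given in the sources used here. The TPM and FPKM values were computed by the authors, and the deposited coverage signal is the mean read coverage per base, not scaled for depth. Read counts were not used here. Of 40903 entries, those sharing a name were summed to 39784 names. The 13420 names with a mean TPM of at least 1 entered a limma 3.58.1 fit (R 4.3.3) of log2(TPM + 1), with moderated statistics, an intensity trend, 2 residual degrees of freedom and 5.09 prior ones, with Benjamini-Hochberg adjustment over all tested names and calls under 0.05. The scale understates changes of low genes. The method was tested on simulated data. Tables and figures used Python 3.11.15, pandas 2.3.3 and matplotlib 3.10.9. Chromosome numbers were taken from a gene table of build GRCr8, and printed gene coordinates are those of the deposited tables. The members and lists were chosen with earlier results of these data known. Named companion genes are the 3 largest called rises and falls of each list, or the 2 most abundant where none was called, and genes outside this rule are said to be so. Some genes that the rules name are not reported here. Also named were overlapping genes, the nearest expressed gene on each side of a member, and the 3 genes nearest by Euclidean distance to the member with the largest rise and to that with the largest fall.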

Additional observations from a re-analysis of the deposited data

How the results depend on the processing

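The differences of Cryab, Hspb2, Hspb3, Hspb8 and Bag3 kept their direction and their call under all 15 alternatives, and over these the log2 differences ran from 1.63 to 1.73 for Cryab, 0.61 to 0.99 for Hspb2, 1.13 to 1.49 for Hspb3, -1.15 to -1.06 for Hspb8 and -1.16 to -0.83 for Bag3. Hspb7 was called under quantile normalization (-0.38), after removal of the mitochondrial genes (-0.40) and with a replicate block (-0.33, adjusted p = 0.0128). With libraries left out, the differences ranged from 0.037 to 0.58 for Hspb1, from -0.29 to 0.097 for Hspb6 and from -0.49 to -0.16 for Hspb7, and the numbers of members called ranged from 3 to 4 higher and from 2 to 4 lower. Under the replicate block Hspb1 was called higher (0.31, adjusted p = 0.0235), and 2726 genes were called higher and 2593 lower. In that fit the standard errors of the 8 members were nearly alike, at 0.092 to 0.12. That of Hspb1 was 0.10, against 0.18 in the main fit, so the spread used was mostly shared among genes. The numbers are not known to pair cultures, and same-numbered libraries deviated together with r = 0.101 across genes. With libraries left out, all-gene counts ranged from 1700 to 2610 higher and from 1312 to 2739 lower, and companion counts from 12 to 25 higher. At an adjusted p under 0.01 the all-gene counts were 1439 higher and 1046 lower. No scaling moved the median of all genes by more than 0.066 on the log2 scale. With the mitochondrial chromosome left out the share of called genes that were higher was 44.5%, against 52.9%. Of 168 recomputed list counts 157 stayed within 1.5 times. The cause of these changes was not tested. With 2 libraries a group, differences of the size of those of Hspb1 and Hspb6 were within the reach of single libraries. The Hspb7 difference kept its sign in all 15 alternatives, while its size varied with the library left out and its call with the processing.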
